A study of Rattus norvegicus with 30 samples.

Results

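This account covers the rat genes of the actin, alpha-actinin, tubulin, keratin, tropomyosin, myosin and filamin families, 93 of the 14217 genes measured, in primary hepatocytes exposed to beta-naphthoflavone (BNF). The genes were taken by symbol from the array's annotation, without a filter on measured values. The families were chosen with earlier results of these data known. Where a gene had several probe sets, the brightest was used, by mean log2 signal over the 30 arrays. BNF is a synthetic flavone that activates the aryl hydrocarbon receptor, a transcription factor that switches on drug-metabolising genes. The cells were purchased frozen hepatocytes of male Sprague Dawley rats, whose age the labels do not give. They grew on collagen under a Matrigel overlay, and on day 3 of culture received 1 µM BNF, 100 µM BNF or vehicle, which was 1% DMSO. Each dose was sampled at 24 and 48 h, in 5 culture wells per group and 1 array per well. The labels do not tie wells to animals, so p-values measure the spread between wells, and precision is limited by the number of arrays.

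The families build the internal scaffold of the cell. Actin filaments are bundled by alpha-actinins and filamins, wrapped by tropomyosins and pulled on by myosins, whose force is set by their light chains. Alpha and beta tubulins join as dimers into microtubules, which grow from complexes of gamma tubulin. Keratin filaments need a type I and a type II chain, and in hepatocytes these are Krt18 and Krt8, which guard the cell against mechanical and toxic stress. Bile duct cells add Krt7 and Krt19, and Acta2 marks contractile cells such as activated stellate cells. Hepatocytes in culture flatten and rebuild this scaffold, so the vehicle groups at both times are part of the description.

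Signals are linear array intensities, scaled by the authors to a common level. Differences are log2 fold changes with their standard error (SE) from a limma fit over all genes and all 30 arrays. A gene was called, and is said to have risen or fallen, when its p adjusted by Benjamini-Hochberg over all 14217 genes was under 0.05. The SD among wells of a group was 0.192 to 0.206 log2 units for a typical (median) gene.

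The arrays were alike in scale, with a trimmed mean of 1501 on each and a median signal of 337.8 to 429.1. Pairs of arrays within a group correlated at 0.9615 to 0.9689 over genes, and no pair was identical (0). Of the hepatocyte markers, 11 of 12 were measured and all 11 lay above the median gene signal. Of the other marker lists, 2 of 9 cholangiocyte, 3 of 19 stellate cell, 6 of 12 Kupffer cell, 0 of 10 endothelial and 0 of 16 striated muscle markers did. The summed hepatocyte markers were 445200 to 536400 in vehicle at 48 h and 353000 to 428600 at 100 µM, groups that did not overlap. The summed Kupffer cell markers were 19620 to 21640 and 16110 to 17870 in the same groups and the cholangiocyte markers 13760 to 15570 and 12030 to 12570, again with no overlap. Single cholangiocyte markers went both ways at 100 µM and 48 h. The log2 fold change was -0.36 for Epcam and -2.625 for Cldn7, but 2.99 for Cd24. Epcam, with a mean log2 signal of 13.37, makes up most of the cholangiocyte sum, so that sum mainly follows this 1 gene. Cldn7 and Cd24 were dim, at 7.43 and 7.54 against 9.75 for the median gene. At 24 h the vehicle and 100 µM sums of these lists overlapped. They were 515100 to 588900 and 462200 to 589200 for hepatocyte markers and 23370 to 27340 and 26440 to 30160 for Kupffer cell markers. For cholangiocyte markers they were 12430 to 13600 and 12230 to 13260. The summed stellate cell markers were 9056 to 12710 in vehicle at 24 h and 7904 to 9766 at 100 µM, and 6679 to 8368 and 5800 to 7583 at 48 h, which overlap. In these bulk samples fewer cells of a type and less RNA per cell cannot be told apart, and the part of these shifts in the results below was not tested.

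Most family genes were dim: 31 of 93 (33.3%) lay above the median gene signal of 863.2, and 62 at or below it. Only Krt18 of 14 type I keratins and only Krt8 of 11 type II keratins lay above the median, both in the top percentile of genes (99.2 and 99.6). Krt7 and Krt19, the bile duct keratins, lay at percentiles 0.584 and 3.26, so duct keratin was near the floor of the array. Among actins, cytoplasmic gamma-actin Actg1 stood at percentile 99.7, and smooth muscle alpha-actin Acta2 at 46.4. The beta tubulins held 6 of 8 genes above the median and the gamma tubulin complex 4 of 5. The tropomyosins held 3 of 4 and the unconventional myosins 7 of 18. Only 2 of 12 myosin heavy chains were bright, the nonmuscle chain Myh9 (percentile 89.1) and Myh1 (98.7). Myh1 encodes a heavy chain of fast skeletal muscle, and its 5 probe sets had mean signals of 8431 to 33740 while none of the 16 striated muscle markers (0) was above the median. Its chosen probe set carries a suffix that marks sequence shared with other genes, so what it measured here is uncertain.

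**Figure D1:**
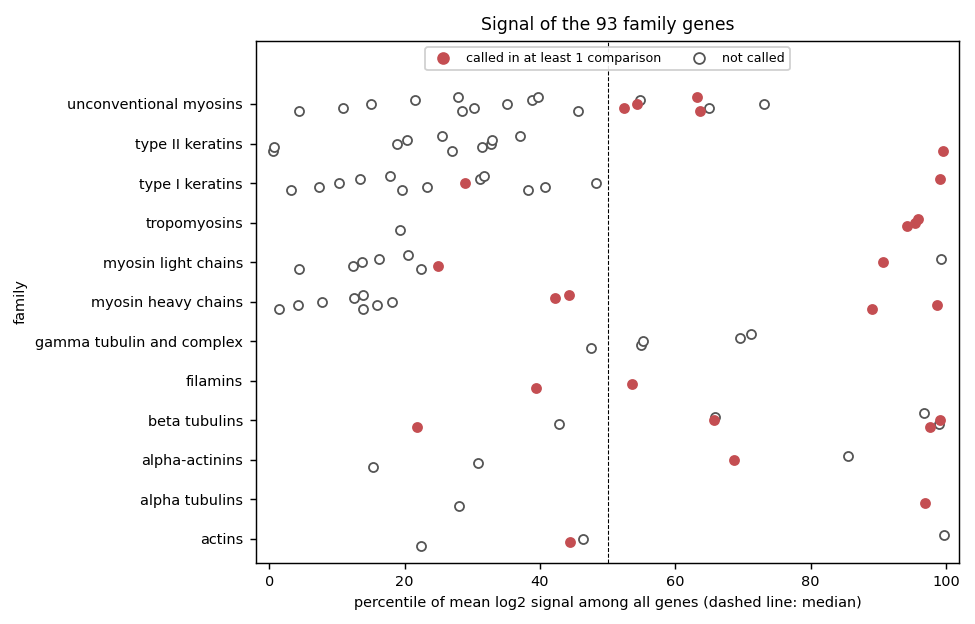
Mean log2 signal of the 93 genes, as a percentile among all 14217 genes (x axis), by family (y axis); each point is a gene, filled where it was called in at least 1 of 9 comparisons. The 25 called genes include 18 above the median signal, and each keratin family has 1 gene near the right edge, Krt18 or Krt8.

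The 4 promoters below belong to the genes the results turn on: the hepatocyte keratins Krt8 and Krt18, which fell together, and Tubb3 and Acta1, a tubulin and an actin gene called at 100 µM at both times. Each is the 250 bases before the start of the gene as RefSeq places it on assembly GRCr8, written from 5′ to 3′ on the strand of the gene. Krt8 is at chr7:135010340-135010589 on the minus strand and Krt18 at chr7:135035918-135036167 on the plus strand, with starts 25.8 kb apart. Tubb3 is at chr19:68365437-68365686 on the plus strand and Acta1 at chr19:68784195-68784444 on the minus strand. Capitals mark matches to 3 motifs searched on both strands: GCGTG, the core of the site of the aryl hydrocarbon receptor; the CArG box of serum response factor (SRF), CC followed by 6 bases of A or T and then GG; and TATAA, the TATA box core, which was added after the sequences had been seen.
Krt8: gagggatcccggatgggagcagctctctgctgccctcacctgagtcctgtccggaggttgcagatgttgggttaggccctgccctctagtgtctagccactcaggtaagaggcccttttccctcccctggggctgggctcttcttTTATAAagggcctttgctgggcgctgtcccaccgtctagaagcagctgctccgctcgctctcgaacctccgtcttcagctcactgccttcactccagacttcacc
Krt18: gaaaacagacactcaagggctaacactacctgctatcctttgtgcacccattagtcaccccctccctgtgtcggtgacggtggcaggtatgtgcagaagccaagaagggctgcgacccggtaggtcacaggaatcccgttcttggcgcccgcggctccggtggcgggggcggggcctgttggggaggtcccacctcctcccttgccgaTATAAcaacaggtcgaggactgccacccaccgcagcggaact
Tubb3: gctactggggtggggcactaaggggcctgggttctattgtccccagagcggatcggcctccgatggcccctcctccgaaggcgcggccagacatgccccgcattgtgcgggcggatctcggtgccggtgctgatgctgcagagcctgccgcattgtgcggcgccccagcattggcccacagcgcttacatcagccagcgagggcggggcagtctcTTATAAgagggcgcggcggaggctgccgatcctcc
Acta1: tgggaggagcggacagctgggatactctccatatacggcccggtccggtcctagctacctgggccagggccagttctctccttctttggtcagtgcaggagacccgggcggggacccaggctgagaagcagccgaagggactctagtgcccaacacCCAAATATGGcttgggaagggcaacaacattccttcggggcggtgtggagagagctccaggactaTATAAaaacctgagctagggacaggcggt
All 4 windows hold TATAA, beginning 104 bases before the given start in Krt8, 42 in Krt18, 34 in Tubb3 and 29 in Acta1, against 24.0% of all 33469 windows of this length. In Krt8 and Tubb3 the match on the opposite strand overlaps it by all but 1 base. The Acta1 window holds a CArG box, CCAAATATGG, from 94 to 85 bases before the start, and 1.5% of all windows hold one. None of the 4 windows holds GCGTG, which 25.9% of all windows hold. Of the 79 family genes with a window in the table, 24 (30.4%) hold GCGTG.

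At 100 µM the 2 times gave similar counts of family genes called, and the calls went both ways. At 24 h, 6 genes rose and 10 fell, 16 of 93 (17.2%), against 21.1% of all genes. At 48 h, 7 rose and 8 fell, 15 of 93 (16.1%), against 17.4% of all genes. Among the genes above the median signal the shares were 13 of 31 (41.9%) against 35.4% at 24 h, and 12 of 31 (38.7%) against 29.7% at 48 h. The median log2 fold change of the 93 genes was 0.04 at 24 h and -0.01 at 48 h, against 0.04 and 0.02 over all genes. Groups did not overlap for 10 of the 93 genes at 24 h and 9 at 48 h, against 14.8% and 13.3% of all genes. The share called higher and lower over all genes was 10.7% and 10.4% at 24 h and 8.79% and 8.62% at 48 h.

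The same 11 genes were called at both times at 100 µM, each in the same direction, in comparisons that share no array. They are 68.8% of the 24 h calls and 73.3% of the 48 h calls, and the shares over all genes were 54.0% and 65.5% (1620 genes). Risen at both times were the tubulins Tubb3, Tuba4a and Tubb5, the actin bundler Actn1 and the tropomyosin gene Tpm3. Fallen at both times were Krt8, Krt18, Acta1, Tpm1 and the unconventional myosins Myo1d and Myo5b.

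**Figure D2:**
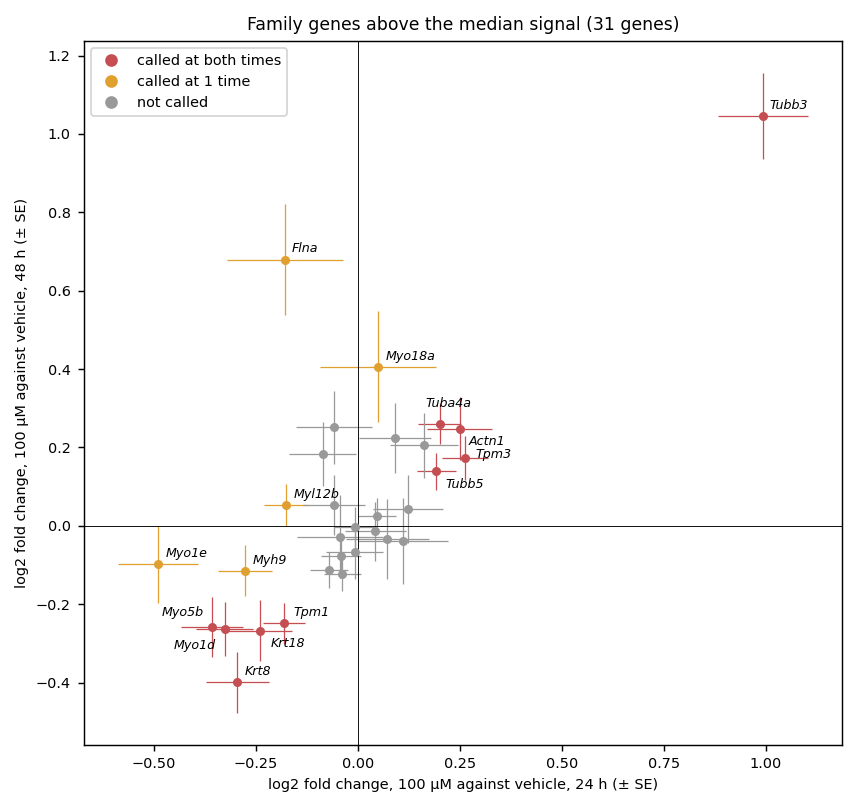
Log2 fold change of 100 µM BNF against vehicle at 24 h (x axis) and at 48 h (y axis) for the 31 family genes above the median signal, each with its SE. Tubb3 lies alone at upper right (0.99 and 1.05), Krt8 is lowest at 48 h (-0.40), and Flna is far above the x axis at 48 h only (0.68).

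The beta tubulin Tubb3, the class III isotype known chiefly from neurons, had the lowest adjusted p of all family genes. At 24 h its signal was 1238, 1192, 1289, 1272 and 1285 in vehicle and 1049, 1502, 1582, 2082 and 1745 at 1 µM. At 100 µM and 24 h it was 2235, 2586, 2340, 2559 and 2798. Every 100 µM array lay above every vehicle and 1 µM array, and 4 of the 5 arrays at 1 µM lay above vehicle while the fifth, replicate 1, lay below it. At 48 h the signal was 1606, 1839, 1760, 1610 and 1570 in vehicle, 2195, 1703, 1738, 1610 and 1962 at 1 µM, and 3620, 3115, 3576, 3638 and 3355 at 100 µM. Again the 100 µM arrays stood apart from both other groups, which overlapped. The rise at 100 µM was 1.99-fold at 24 h (log2 0.99 ± 0.11 SE, adjusted p = 4.34e-08) and 2.06-fold at 48 h (1.05 ± 0.11, adjusted p = 1.47e-08). Against 1 µM, 100 µM was higher by 0.68 ± 0.11 at 24 h and 0.92 ± 0.11 at 48 h (adjusted p = 8.53e-05 and 3.69e-07). At 1 µM the differences of 0.31 ± 0.11 at 24 h and 0.13 ± 0.11 at 48 h were not called (adjusted p = 0.115 and 0.712). The 24 h difference was called without 1 µM 24 h replicate 1, at 0.45 (adjusted p = 0.00246). A second, dim Tubb3 probe set, with a mean signal of 135.1, gave -0.53 at 24 h and 0.53 at 48 h and was not called. The chosen probe set carries a suffix that marks probes shared by several transcripts. Whether other transcripts contributed to its signal was not tested.

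Tuba4a, an alpha tubulin, and Tubb5, a widely used beta tubulin, rose less. The Tuba4a signal at 24 h was 20150, 19560, 20090, 19470 and 18550 in vehicle and 21320, 22170, 23060, 23720 and 22170 at 100 µM, groups that did not overlap. At 48 h it was 20040, 22730, 18330, 19770 and 18870 in vehicle and 22200, 23730, 25080, 23610 and 24670 at 100 µM. Here vehicle replicate 2 reached into the treated range. The log2 fold changes were 0.20 ± 0.05 and 0.26 ± 0.05 (adjusted p = 0.00585 and 0.000511). Tubb5 rose by 0.19 ± 0.05 at 24 h, where its groups did not overlap, and by 0.14 ± 0.05 at 48 h, where they did (adjusted p = 0.00318 and 0.041). The 48 h call was lost without vehicle 48 h replicate 1, 3, 4 or 5 or 100 µM 48 h replicate 2, 3, 4 or 5 (adjusted p from 0.0542 to 0.136), in the fit of these groups alone (0.115) and without the variance trend (0.0659). A second Tubb5 probe set gave 0.46 at 48 h and was called.

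The other beta tubulins above the median signal, Tubb2a, Tubb4a, Tubb4b and Tubb6, were not called against vehicle at either dose. At 100 µM they differed from vehicle by -0.11 to 0.11 over both times. The third Tubb4a probe set, which is dimmer (mean signal 542.8) and carries the suffix for sequence shared with other genes, gave 1.53 ± 0.35 at 100 µM and 24 h and was called (adjusted p = 0.00147). At 48 h it gave -0.81 (adjusted p = 0.133), so for Tubb4a the probe sets disagree. The 5 genes of the gamma tubulin complex, which nucleates microtubules, were not called in any of the 9 comparisons. Gamma tubulin itself, Tubg1, differed by 0.04 ± 0.08 and -0.01 ± 0.08 at 100 µM. Tubgcp2, a subunit of the complex, differed by 0.16 ± 0.08 and 0.21 ± 0.08 (adjusted p = 0.184 and 0.0891); its 24 h value was called without vehicle 24 h replicate 2 (0.24, adjusted p = 0.0231) and its 48 h value on median centring (0.0499). Of the alpha tubulins only Tuba4a and Tuba8 have probe sets of their own here, and Tuba8 was dim (percentile 28.1).

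**Figure D3:**
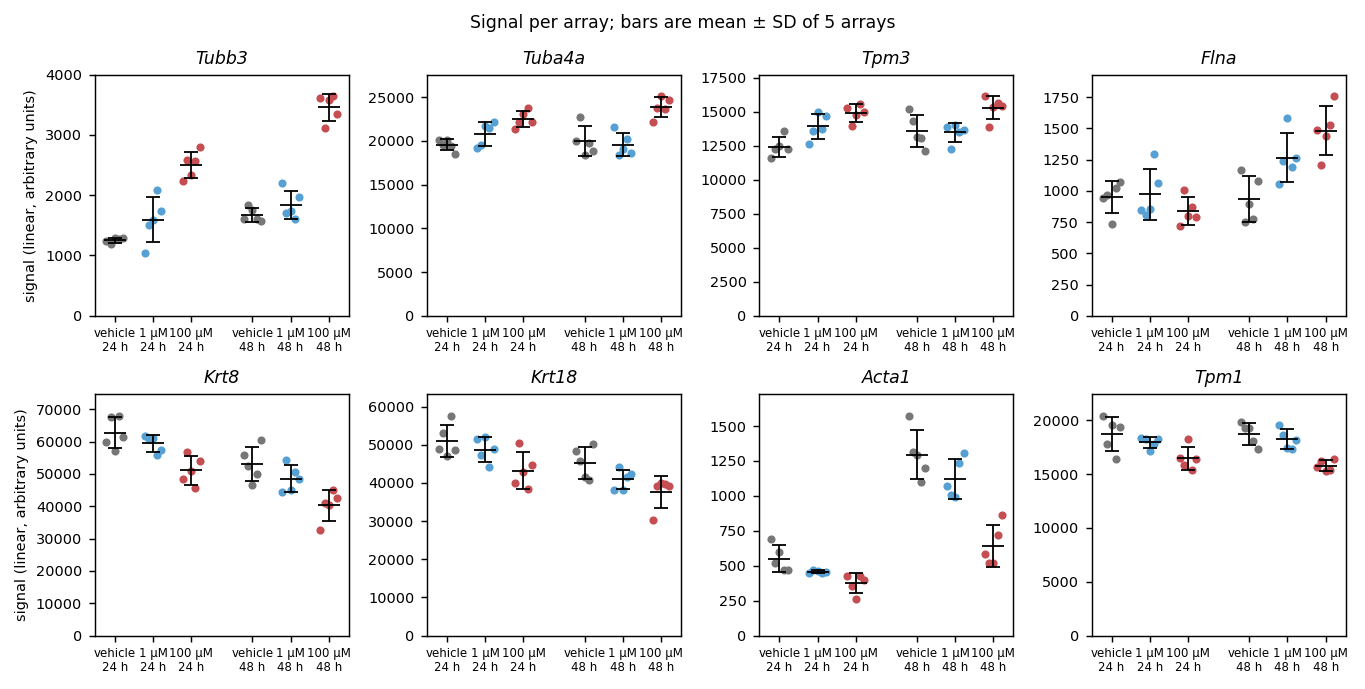
Linear signal in each array (points) with the mean and SD of 5 arrays (bars) for 8 genes in the 6 groups of dose and time; y axes start at 0. At 100 µM the points of Tubb3 lie above all others of their time, and those of Krt8 and Acta1 lie below vehicle at both times.

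The hepatocyte keratins fell at 100 µM at both times. The Krt8 signal at 24 h was 60010, 67500, 56960, 67860 and 61450 in vehicle and 48350, 56710, 51000, 45620 and 54080 at 100 µM. At 48 h it was 55720, 52500, 46660, 49960 and 60540 in vehicle and 32530, 41000, 40350, 45080 and 42620 at 100 µM. All treated arrays lay below all vehicle arrays at both times, by a narrow margin at 24 h. Krt8 fell, with log2 fold changes of -0.30 ± 0.08 at 24 h and -0.40 ± 0.08 at 48 h (adjusted p = 0.00497 and 0.000259), and both calls held without any 1 array. The 1 µM arrays, at 55850 to 61870 and 44340 to 54250, overlapped both other groups at each time, and Krt8 was not called at 1 µM against vehicle (-0.08 ± 0.08 and -0.13 ± 0.08).

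The Krt18 signal at 24 h was 48810, 53100, 47160, 57500 and 48580 in vehicle and 39880, 50470, 42900, 38370 and 44760 at 100 µM, groups that overlapped. At 48 h it was 48280, 45840, 41450, 40720 and 50140 in vehicle and 30180, 39220, 40090, 39810 and 39220 at 100 µM. These did not overlap, and replicate 1 of the treated group lay far below the other 4. Krt18 fell, with log2 fold changes of -0.24 ± 0.08 and -0.27 ± 0.08 (adjusted p = 0.0257 and 0.0149). The 24 h call was lost without vehicle 24 h replicate 2 or 4 or 100 µM 24 h replicate 1 or 4 (adjusted p = 0.0603, 0.0927, 0.0728 and 0.0928). The 48 h call was lost without 100 µM 48 h replicate 1, at -0.19 (adjusted p = 0.0757), and without vehicle 48 h replicate 5 (0.0578).

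Of the 23 keratins at or below the median signal Krt20, an intestinal keratin, was called once, at 100 µM and 48 h (-0.76 ± 0.23, adjusted p = 0.0188), at a mean signal of 285. Krt7 differed at 100 µM by 0.03 ± 0.39 at 24 h and 0.42 ± 0.39 at 48 h (adjusted p = 0.978 and 0.558), and Krt19 by -0.74 ± 0.68 and 0.73 ± 0.68, with signals too low to set a direction. Genes that work with keratins fell more often than they rose. Of 14 other intermediate filament genes and keratin partners, 6 fell at 24 h with no rise, and 2 rose and 6 fell at 48 h, with a median of -0.20 at each time. Over all genes 10.4% were lower at 24 h and 8.62% at 48 h, with medians of 0.04 and 0.02, and 10 of the 14 are bright, where 35.4% and 29.7% of genes were called in either direction. Vim, which encodes vimentin, fell, with log2 fold changes of -1.71 ± 0.23 and -2.47 ± 0.23 (adjusted p = 1.68e-06 and 1.68e-09). The plakin genes Eppk1 and Ppl, whose products tie keratin to cell borders and to other keratin, fell at both times. Eppk1 was at -0.92 ± 0.12 at 24 h and -1.02 ± 0.12 at 48 h, and Ppl at -1.04 ± 0.14 and -0.64 ± 0.14. Vimentin is also made by stellate cells, whose summed markers are given above, and its part from them was not tested. In vehicle over time 6 of the 14 were lower as well, against 8.60% of all genes, with a median of -0.22 against 0.00.

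Among actins, the cytoplasmic Actg1 was not called and the dim skeletal muscle actin Acta1 was. Actg1 had a signal of 54910, 62600, 53480, 63680 and 58530 in vehicle and 51540, 68280, 55680, 54280 and 62780 at 100 µM at 24 h. It differed by -0.01 ± 0.07 at 24 h and -0.07 ± 0.07 at 48 h. The probe sets of Actb, the other cytoplasmic actin, fall outside the symbols chosen. Acta2 differed by 0.18 ± 0.21 and 0.27 ± 0.21 and was not called in any of the 9 comparisons.

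Acta1 lay at percentile 44.5, just under the median signal. At 24 h its signal was 692.2, 521.4, 595.9, 471.7 and 469.9 in vehicle, 449.8, 470.4, 464.6, 449.7 and 451.6 at 1 µM, and 429.6, 351.6, 258.6, 428.9 and 397 at 100 µM. At 48 h it was 1570, 1311, 1295, 1102 and 1202 in vehicle, 1071, 1005, 993.4, 1232 and 1309 at 1 µM, and 582.5, 521.4, 521.1, 716.6 and 863.9 at 100 µM. The 100 µM arrays lay below both other groups at each time, and every 48 h vehicle array lay above every 24 h array. Acta1 fell at 100 µM, with log2 fold changes of -0.57 ± 0.15 at 24 h and -1.03 ± 0.15 at 48 h (adjusted p = 0.00556 and 4.42e-06). In vehicle it was 2.37-fold higher at 48 than at 24 h (1.24 ± 0.15, adjusted p = 2.99e-07). The fall at 24 h was not called in the fit of these groups alone (adjusted p = 0.0557).

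The actin bundler Actn1 rose at 100 µM by 0.25 ± 0.08 at 24 h and 0.25 ± 0.08 at 48 h (adjusted p = 0.022 and 0.0269). Its groups overlapped at both times: at 24 h vehicle was 1717 to 2308 and 100 µM 1955 to 2479, and at 48 h vehicle was 2115 to 2275 and 100 µM 2240 to 2837. The 24 h call was lost without vehicle 24 h replicate 1, 3 or 5 or 100 µM 24 h replicate 2 or 4 (adjusted p from 0.0524 to 0.0761) and in the fit of these groups alone (0.0909). The 48 h call was lost without vehicle 48 h replicate 3 or 4 or 100 µM 48 h replicate 1, 3 or 5 (0.0507 to 0.0794). Actn4, the other nonmuscle alpha-actinin, differed by -0.09 ± 0.08 and 0.18 ± 0.08 and was not called.

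The tropomyosins, which wrap actin filaments and set which motors bind, moved in opposite directions by gene. The Tpm1 signal at 48 h was 19850, 19270, 19300, 18120 and 17330 in vehicle and 15710, 16230, 15260, 15350 and 16380 at 100 µM, groups that did not overlap. At 24 h vehicle spanned 16370 to 20390 and 100 µM 15430 to 18240, which overlap. Tpm1 fell, with log2 fold changes of -0.18 ± 0.05 and -0.25 ± 0.05 (adjusted p = 0.0109 and 0.000648). The 24 h call was lost on median centring of the arrays (adjusted p = 0.0501) and in the fit of these groups alone (0.0653). Tpm1 has 7 probe sets, and they disagreed: at 24 h 5 lay above 0 and 2 below, and at 48 h 2 above and 5 below, with the chosen probe set the only call.

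The Tpm3 signal at 24 h was 11580, 12260, 12470, 13600 and 12300 in vehicle and 15280, 13940, 14750, 15610 and 14980 at 100 µM, groups that did not overlap. At 48 h vehicle was 12140 to 15180 and 100 µM 13880 to 16130. Tpm3 rose by 0.26 ± 0.06 and 0.17 ± 0.06 (adjusted p = 0.000706 and 0.0287). Of its 12 probe sets 11 lay above 0 and 6 were called higher at 24 h, while at 48 h 6 lay above 0 and 6 below, with 2 called higher. The 48 h call was lost without vehicle 48 h replicate 3, 4 or 5 or 100 µM 48 h replicate 1, 3, 4 or 5 (adjusted p from 0.0525 to 0.12) and in the fit of these groups alone (0.0803). Tpm4 was not called at 100 µM (-0.04 ± 0.05 and -0.12 ± 0.05, adjusted p = 0.643 and 0.0597). Its 48 h value was called on quantile normalization, among bright genes alone, and without 100 µM 48 h replicate 5 (adjusted p = 0.046, 0.0354 and 0.0135). Transcripts of tropomyosin genes differ by splicing, and probe sets of 1 gene may read different ones.

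The myosins that were called at 100 µM fell, except Myo18a. Of the nonmuscle heavy chains that drive contraction in nonmuscle cells, Myh9 had a signal of 8966, 10130, 8626, 11130 and 9211 in vehicle and 7825, 7908, 7493, 8033 and 8266 at 100 µM at 24 h. These groups did not overlap. Myh9 fell by 0.28 ± 0.07 at 24 h (adjusted p = 0.00189) and was not called at 48 h (-0.12 ± 0.07, adjusted p = 0.263). Myh10, a dim nonmuscle chain, fell by 0.60 ± 0.16 at 24 h (adjusted p = 0.00748; 0.0534 in the fit of these groups alone) and differed by -0.10 ± 0.16 at 48 h. The third, Myh14, differed by -0.05 ± 0.10 and -0.27 ± 0.10 and was not called against vehicle, except without the variance trend at 48 h (adjusted p = 0.0158). The change of effect between the times was not called for Myh9 (0.16 ± 0.09), Myh10 (0.50 ± 0.23) or Myh14 (-0.22 ± 0.15). Myh11, the smooth muscle chain, was dim (percentile 13.8) and not called, while its second probe set gave 1.08 at 48 h and was called.

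The regulatory light chains of nonmuscle myosin, Myl12a and Myl12b, stood at percentiles 99.3 and 90.7. Myl12a was not called against vehicle (-0.04 ± 0.05 and -0.08 ± 0.05). Myl12b fell at 24 h by 0.18 ± 0.05 (adjusted p = 0.0157), with 9418, 9806, 10050, 10260 and 9809 in vehicle and 9810, 7289, 9097, 8384 and 9304 at 100 µM. Only 100 µM replicate 1 lay within the vehicle range, and without 100 µM 24 h replicate 2 the difference was -0.11 and not called (adjusted p = 0.0785). It was also lost on median centring (0.0723) and in the fit of these groups alone (0.0996). Myl2, a cardiac light chain with a mean signal of 222, fell by 1.69 ± 0.51 at 48 h (adjusted p = 0.0173; 0.0691 without vehicle 48 h replicate 5), but its second, dimmer probe set rose by 1.62.

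Unconventional myosins carry membranes and cargo along actin. Myo5b, a motor of recycling endosomes, and Myo1d, which links membranes to actin, fell at both times. The Myo1d signal at 24 h was 1826, 1814, 1704, 2022 and 1646 in vehicle and 1496, 1396, 1350, 1446 and 1486 at 100 µM, groups that did not overlap. At 48 h vehicle was 1950 to 2098 and 100 µM 1507 to 2006, where 1 treated array reached the vehicle range. Myo1d fell, with log2 fold changes of -0.33 ± 0.07 and -0.26 ± 0.07 (adjusted p = 0.000668 and 0.00653). Myo5b fell, with log2 fold changes of -0.36 ± 0.08 and -0.26 ± 0.08 (adjusted p = 0.000614 and 0.0149). Its signal was 1529 to 1878 in vehicle and 1217 to 1630 at 100 µM at 24 h, and 1807 to 2130 and 1566 to 1822 at 48 h. At each time 1 treated array reached the vehicle range. Myo1e, an endocytic motor, fell by 0.49 ± 0.10 at 24 h (adjusted p = 0.000344) and differed by -0.10 ± 0.10 at 48 h. Myo18a, linked to the Golgi, rose by 0.41 ± 0.14 at 48 h (adjusted p = 0.0442). That call was lost without vehicle 48 h replicate 1, 2, 3 or 4 or 100 µM 48 h replicate 3, 4 or 5 (adjusted p from 0.0501 to 0.148) and without the variance trend (0.0522). Myo6, which moves toward the other end of the filament, and Myo1c were not called. Myo1c differed by 0.25 ± 0.09 at 48 h (adjusted p = 0.0621), and was called on median centring (0.026), among bright genes alone (0.0377) and without 100 µM 48 h replicate 1 (0.0483).

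Filamins cross-link actin into a mesh and tie it to the membrane. The Flna signal at 48 h was 1165, 753.8, 893.6, 771.1 and 1082 in vehicle, 1054, 1241, 1582, 1193 and 1262 at 1 µM, and 1489, 1206, 1437, 1524 and 1755 at 100 µM. All 100 µM arrays lay above all vehicle arrays, and the 1 µM arrays overlapped both groups. Flna rose by 0.68 ± 0.14 at 48 h (adjusted p = 0.000703), and at 1 µM differed by 0.45 ± 0.14 (adjusted p = 0.156). At 24 h it was 944.4, 967.1, 736.5, 1023 and 1074 in vehicle and 715.8, 1010, 800.8, 867.9 and 791.8 at 100 µM, a difference of -0.18 ± 0.14 that was not called (adjusted p = 0.445). Flnc, a dim muscle filamin, rose by 0.79 ± 0.25 at 24 h (adjusted p = 0.0239). Its call was lost without vehicle 24 h replicate 3 (0.0763) or 100 µM 24 h replicate 4 (0.059), and its second probe set gave 0.0050 at 24 h and was called lower at 48 h (-0.66, adjusted p = 0.0171).

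By the brightest probe sets Flna was the only family gene whose 100 µM effect changed between the times, 1 of 93 against 0.788% of all genes (0.380% higher and 0.408% lower) and 1.48% of those above the median signal. The change was 0.86 ± 0.20 (adjusted p = 0.0304). Of the other probe sets of family genes 1 was called, the third of Tubb4a, at -2.34 ± 0.49 (adjusted p = 0.015), where the chosen Tubb4a probe set gave -0.15 ± 0.15. The Flna change was no longer called without any 1 of vehicle 24 h replicates 1, 4 or 5, vehicle 48 h replicates 2, 3 or 4, 100 µM 24 h replicates 1 or 5, or 100 µM 48 h replicate 5 (adjusted p from 0.052 to 0.0726). Without vehicle 24 h replicate 3 a second gene, Myo1e, was called as well (0.51, adjusted p = 0.026). No family gene (0) had a called change of the 1 µM effect between the times, where 0.0914% of all genes (0.0492% higher and 0.0422% lower) and 0.155% of those above the median signal did, and 7 of 93 had an unadjusted p under 0.05.

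The 1 µM dose left nearly all family genes uncalled. At 24 h 1 gene rose and 1 fell, against 4.30% of all genes called (1.91% higher and 2.40% lower). Above the median signal it was 1 of 31 against 7.71%, and the groups of 3 of the 93 genes did not overlap, against 5.20% of all genes. The count fell to 1 without 1 µM 24 h replicate 2, 3, 4 or 5 or vehicle 24 h replicate 4 or 5. Myh9 fell by 0.22 ± 0.07 (adjusted p = 0.0425), with 8050, 7461, 8539, 8415 and 8541 against 8626 to 11130 in vehicle, which did not overlap. This call was lost without vehicle 24 h replicate 2, 4 or 5 or any 1 of the 5 arrays at 1 µM (adjusted p from 0.055 to 0.152). It was lost too on quantile normalization (0.0663), without the variance trend (0.0745) and in the fit of these groups alone (0.0992). Tubb2b, a dim beta tubulin with a mean signal of 179, rose by 1.95 ± 0.42 (adjusted p = 0.00504), from 192.2, 144.9, 76.49, 51.75 and 41.03 to 280.8, 306.3, 268.8, 619.7 and 272.6. At 100 µM and 24 h Tubb2b was 209.3, 102.6, 156.1, 254.6 and 54.54, below all 1 µM arrays. These values overlapped vehicle, and it was not called against vehicle at 100 µM. Its rise in vehicle over time, given below, rests on the same vehicle arrays at 24 h. Myo1e, at -0.33 ± 0.10, was just short of a call (adjusted p = 0.0523), and was called without vehicle 24 h replicate 2 or 3 (0.0483 and 0.00182). At 48 h no family gene (0) was called, against 0.809% of all genes (0.288% higher and 0.521% lower) and 1.41% of those above the median signal, and 6 of 93 had an unadjusted p under 0.05. Groups did not overlap for 1 gene, Tpm4, against 2.62% of all genes. Among bright genes alone 1 was called, Tpm4, at -0.17 ± 0.05 (adjusted p = 0.036; 0.0621 over all genes).

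**Figure D4:**
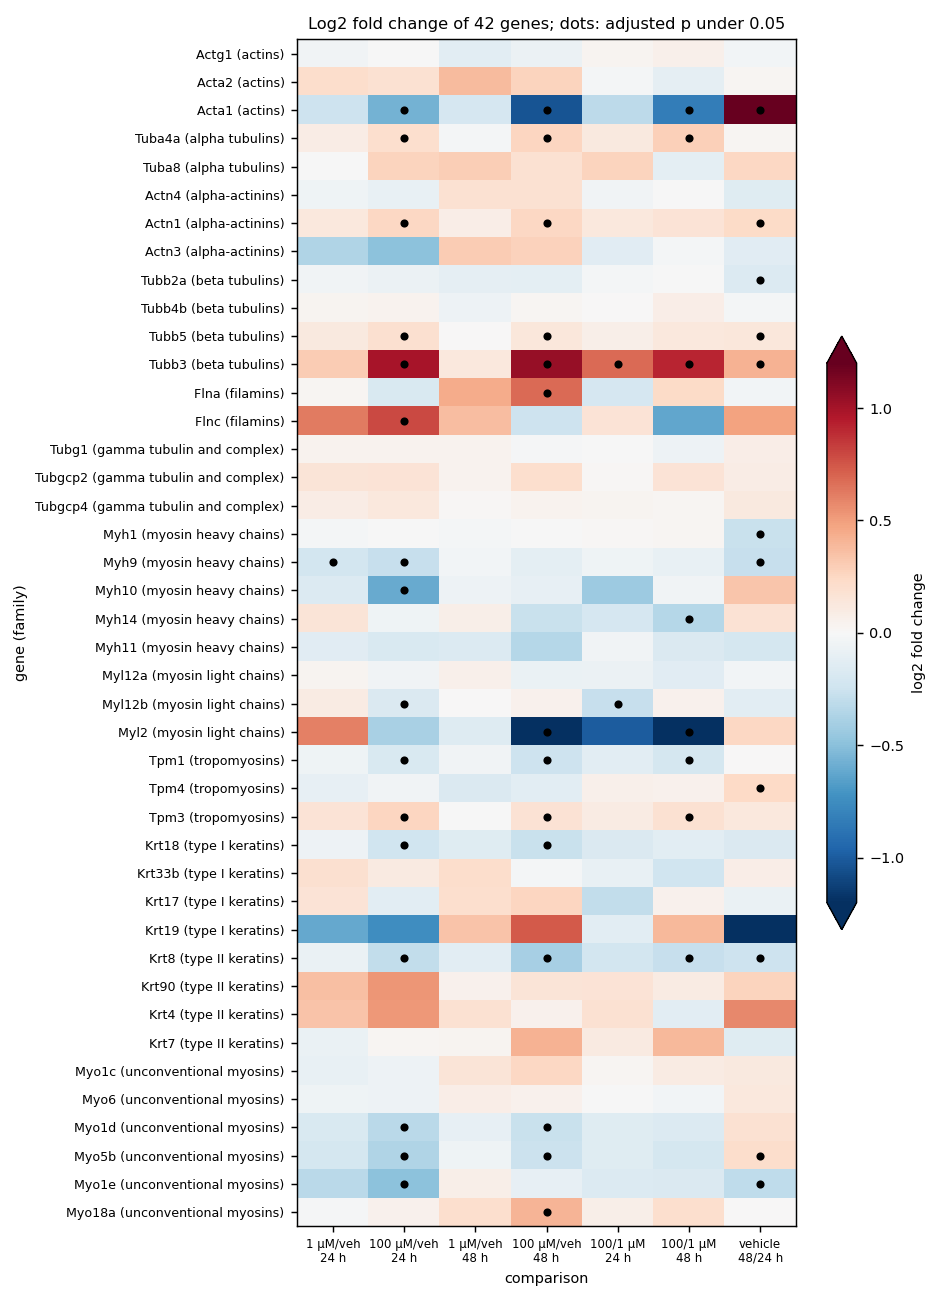
Log2 fold change (colour, cut at -1.2 and 1.2) of the 42 family genes named by rule (y axis) in 7 comparisons (x axis); dots mark an adjusted p under 0.05. The 1 µM columns hold 1 dot, Myh9 at 24 h, since Tubb2b is not among the 42 genes, and the 100 µM columns show Tubb3 as the strongest red.

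Between the doses, 100 µM against 1 µM, 1 gene was higher and 1 lower at 24 h, against 7.72% of all genes called (3.14% higher and 4.57% lower) and 13.7% of those above the median signal. Groups did not overlap for 4 genes, against 7.58% of all. Tubb3 was higher, as given above, and Myl12b was lower by -0.27 ± 0.05 (adjusted p = 0.000745). Its signal was 10200, 10600, 11340, 10310 and 10400 at 1 µM, above all 100 µM arrays. At 24 h the count rose to 4 without 100 µM 24 h replicate 1, with 1 higher and 3 lower, among them Myh10 (-0.57, adjusted p = 0.0251). At 48 h 3 were higher and 5 lower, against 14.0% of all genes (6.57% higher and 7.39% lower) and 24.0% of those above the median signal. Groups did not overlap for 7 genes, against 10.9% of all. Tuba4a was higher by 0.29 ± 0.05 and Tpm3 by 0.18 ± 0.06, and Krt8 was lower by -0.27 ± 0.08, Tpm1 by -0.21 ± 0.05 and Acta1 by -0.83 ± 0.15. Of the dim genes Myh14 was lower by -0.34 ± 0.10 and Myl2 by -1.54 ± 0.51. The split depends on the scaling: on median centring 7 were higher and 2 lower, with Krt8 (adjusted p = 0.105), Tpm1 (0.162) and Myh14 (0.0743) no longer called. Without 1 µM 48 h replicate 2 only 4 calls remained, with Krt8 (0.0579), Tpm3 (0.103), Myh14 (0.0953) and Myl2 (0.13) among those lost. Krt8 was also lost without 100 µM 48 h replicate 1 (0.0642), Tpm3 without 100 µM 48 h replicate 1, 3, 4 or 5 (0.0524 to 0.0719) and on quantile normalization (0.0794), and Myh14 without 100 µM 48 h replicate 1 or 3 (0.0582 and 0.0621), on quantile normalization (0.127) and in the fit of these groups alone (0.108). Myl2 was lost without 1 µM 48 h replicate 1 or 4 or 100 µM 48 h replicate 1, 3 or 5 (0.0646 to 0.095), with a constant of 100 (0.0677) and without the variance trend (0.0548).

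In vehicle alone, 7 family genes were higher and 5 lower at 48 than at 24 h, 12 of 93 (12.9%) against 17.2% of all genes (8.64% higher and 8.60% lower), with 6 higher and 2 lower on median centring. Above the median signal it was 10 of 31 against 29.2%, and groups did not overlap for 7 genes, against 11.6% of all. Besides Acta1, Tpm4 was higher by 0.24 ± 0.05 (adjusted p = 0.000178), from 15610 to 16260 at 24 h to 18230 to 20290 at 48 h, which did not overlap. Tubb3 was higher by 0.42 ± 0.11 and the dim Tubb2b by 1.60 ± 0.42 (adjusted p = 0.00771 and 0.00725). Actn1 (0.23 ± 0.08), Tubb5 (0.14 ± 0.05) and Myo5b (0.21 ± 0.08) were also higher. Myh9 was lower by -0.28 ± 0.07, Myh1 by -0.27 ± 0.05, Tubb2a by -0.16 ± 0.05, Krt8 by -0.24 ± 0.08 and Myo1e by -0.31 ± 0.10. All 5 probe sets of Myh1 were lower, by -0.30 to -0.24. Over time in vehicle Krt8 was lower, as it was at 100 µM, and Acta1 was higher, where it was lower at 100 µM. The time and dose comparisons share vehicle arrays, so these directions are not independent of each other. For Myh9 and Myo1e the differences from vehicle at 24 h and those over time rest on the same vehicle arrays at 24 h. Myh9 was 8626 to 11130 on those arrays and 7301 to 8377 in vehicle at 48 h.

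Several of these time calls rested on few arrays, and without vehicle 48 h replicate 2 the count was 7. Actn1 was lost without vehicle 24 h replicate 1, 2, 3 or 5 or any 1 of the 5 vehicle arrays at 48 h (adjusted p from 0.0503 to 0.117). Tubb5 was lost without vehicle 24 h replicate 1, 2, 3 or 5 or vehicle 48 h replicate 1, 2 or 4 (0.0635 to 0.127). Myo5b was lost without vehicle 24 h replicate 2, 4 or 5 or vehicle 48 h replicate 1, 2, 4 or 5 (0.0783 to 0.154). Krt8 was lost without vehicle 24 h replicate 2 or 4 or vehicle 48 h replicate 2, 3 or 4 (0.0509 to 0.0908), and Myo1e without vehicle 24 h replicate 1, 4 or 5 or vehicle 48 h replicate 2 or 3 (0.0526 to 0.119). On median centring Krt8 (0.0616), Tubb2a (0.0609), Tubb5 (0.0512) and Myo1e (0.0538) were not called. In the fit of vehicle alone Actn1 (0.0783), Tubb5 (0.0592), Myo5b (0.0828) and Myo1e (0.144) were not, and without the variance trend Actn1 (0.0553) and Tubb5 (0.0669).

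The genes that fold tubulin and steer microtubules rose more often than they fell at 100 µM. Of 27 such genes, all above the median signal, 13 rose and 1 fell at 24 h, and 10 rose and 1 fell at 48 h, with a median log2 fold change of 0.15 and 0.16 against 0.04 and 0.02 over all genes. Of the genes above the median signal 35.4% and 29.7% were called in either direction, and of all genes 10.7% and 8.79% were called higher. Stmn1, which binds free tubulin dimers, rose by 0.78 ± 0.11 and 0.83 ± 0.11 (adjusted p = 2.65e-06 and 1.03e-06). Mapre1, a microtubule plus-end protein, rose by 0.33 ± 0.04 at 24 h. Folding genes rose by less, Pfdn2 of prefoldin by 0.25 ± 0.04 and 0.18 ± 0.04, and the chaperonin subunit genes Cct6a at 24 h by 0.20 ± 0.04 and Tcp1 at 48 h by 0.18 ± 0.04. At 1 µM and 24 h 1 of the 27 rose, Mapre1 (0.24 ± 0.04), against 7.71% of bright genes called.

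Genes of actin turnover and crosslinking rose more often than they fell, with 13 of 37 higher and 6 lower at 24 h and 6 higher and 3 lower at 48 h. Their median was 0.12 and 0.10, against 0.04 and 0.02 over all genes. Of the 37, 29 are bright, and the counts of 19 and 9 called stand against 35.4% and 29.7% of bright genes called. Pfn2, a profilin that feeds actin monomers to filaments, rose by 0.51 ± 0.08 and 0.78 ± 0.08. Arpc1b and Actr2, subunits of the complex that branches filaments, rose at 24 h by 0.46 ± 0.07 and 0.41 ± 0.06. Arpc1b rose at 48 h too, by 0.40 ± 0.07. Tmsb4x, which sequesters actin monomers, fell by 0.75 ± 0.08 at 48 h, and Msn, which links actin to the membrane, rose by 0.88 ± 0.14. At 1 µM and 24 h 3 of 37 rose and 2 fell, against 4.30% of all genes and 7.71% of bright genes called.

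Targets of SRF and its partner MRTF, the factors that read the state of actin, went both ways: of 23 measured, 4 rose and 5 fell at 24 h, and 3 rose and 3 fell at 48 h. Of the 23, 14 are bright, and 21.1% and 17.4% of all genes and 35.4% and 29.7% of bright genes were called at these times. Ccn2, a matricellular gene, fell, with log2 fold changes of -2.28 ± 0.10 and -2.68 ± 0.10 (adjusted p = 1.96e-16 and 1.8e-18), and fell at 1 µM too, at -0.74 ± 0.10 at each time. Fosl1, a transcription factor gene, rose by 1.29 ± 0.11 and 1.46 ± 0.11. Some genes of these lists are also made by other liver cells, and their share was not tested.

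**Figure D5:**
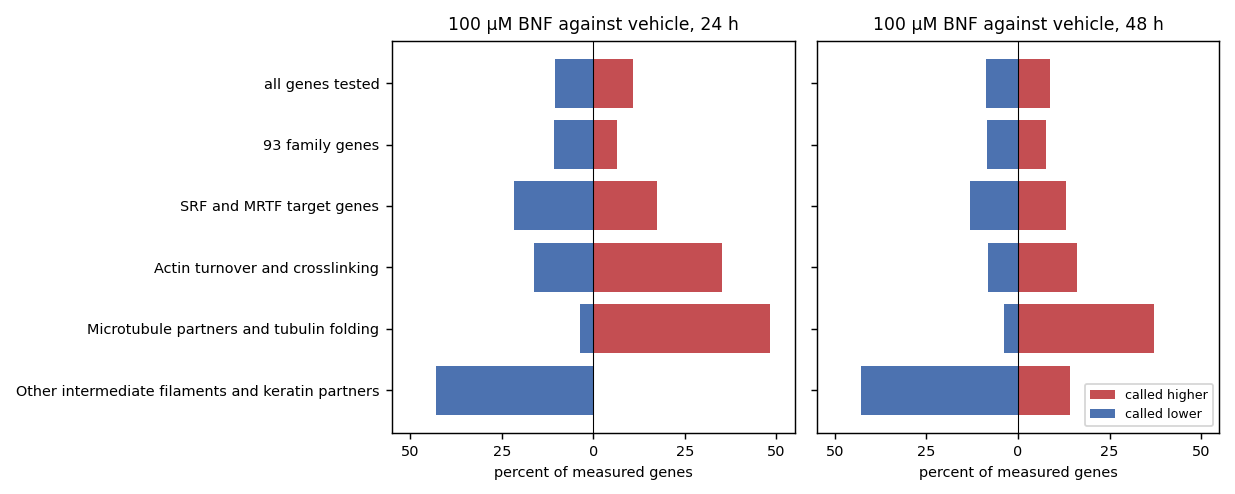
Percent of measured genes called higher (right) and lower (left) at 100 µM against vehicle at 24 and 48 h, for all 14217 genes, the 93 family genes and 4 related lists (y axis). The microtubule list extends to the right (13 and 10 of 27) and the intermediate filament list to the left (6 and 6 of 14), while the family genes lie near all genes.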

How the data were processed

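Each of the 30 Affymetrix arrays has 1 deposited intensity per probe set, on a linear scale, made by the authors with MAS5 per the submitters' processing notes, which give no version. With 2% taken off each end, the mean is 1501 on all arrays, so a shift shared by most genes cannot be seen. How arrays were scanned and filtered is not given in the sources used here. Of 31099 probe sets, 57 controls were dropped. The platform annotation gave 20826 probe sets 1 symbol, 436 several and 9780 none. Only the first were used, which left out 17 probe sets joining a family gene to others, among them sets shared by Actg1 and Actb and by several alpha tubulin genes. The 93 family genes have 142 probe sets, and 27 have over 1. RefSeq (GRCr8) matched 91 by gene number, but not Myh9 or Myh13, and gave the promoter sequences.

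Values were put on the log2 scale, nothing added. R 4.3.3 and limma 3.58.1 fitted 1 mean per group to 30 arrays (24 residual degrees of freedom, eBayes with a variance trend), with 9 contrasts adjusted by Benjamini-Hochberg over 14217 genes. Other probe sets were tested in the same fit over all probe sets with 1 symbol. Groups follow the labels, and replicate numbers are only names. Alternatives were median centring, quantile normalization, a constant of 100, bright genes alone, no variance trend, the compared groups alone, each array left out, other probe sets and, chosen after seeing the data, a replicate block by the cycles of the running number in the titles. On data simulated for 100 µM against vehicle at 24 h (14217 genes, 200 changed in each of 5 rounds), the fit recovered 13.6% of log2 changes of 0.25, 47.6% of 0.5, 73.2% of 1 and 85.2% of 2, with 4.52% of calls false. In the data this comparison gave 3000 calls, far more than the genes changed in a round, so these shares may not carry over.

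Genes named are the family genes called above the median signal, the 3 brightest of each family, and Krt7, Krt8, Krt18, Krt19, Acta2, Myh9, Myh10, Myh11 and Myh14. Dim called genes are named with their signal, and Tubb4a, Tubb6 and Actb were named outside this rule, after their values were seen. From each related list up to 4 called genes with the smallest adjusted p were eligible in each comparison. The genes, lists and tests were chosen with earlier results of these data known. The results of 1 further related list are not reported here.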

Additional observations from a re-analysis of the deposited data

Results flagged for a closer look

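For the 42 named genes in 6 groups, 252 groups of 5 arrays were tested, and in 12 of them 1 array stood far from the other 4, by a test that chance trips in about 1 in 20 groups, so about as many would be found by chance. On 100 µM 48 h replicate 1 this held for 4 bright genes, all low: Actg1 at 45400 (others 56300 to 59500), Krt18 at 30200 (39200 to 40100), Tubb2a at 33900 (37900 to 38700) and Tubb4b at 34700 (39500 to 40800). Without that array Krt18 at 48 h was not called (adjusted p = 0.0757), and Krt8 kept its call against vehicle. On 1 µM 24 h replicate 2 Krt19 was 121 (others 15.1 to 23.4) and Myl12a 44600 (47200 to 47900). Actn4 was 6910 on 1 µM 24 h replicate 5 (others 5480 to 5840), and Tpm3 12300 on 1 µM 48 h replicate 2 (13500 to 14000). Tubb5 was 28100 on 100 µM 24 h replicate 5 (25000 to 25700), and Myo1c 4360 on 100 µM 48 h replicate 5 (3050 to 3240). In vehicle at 48 h Krt33b was 593 on replicate 1 (others 798 to 854) and Myl12b 9330 on replicate 4 (8880 to 8980). The effect of 100 µM on Flna differed between 48 and 24 h by 0.86 (adjusted p = 0.0304), with the arrays it rests on given above.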

How the results depend on the processing

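Of 53 calls on the named genes, 33 held under each of the 6 processing alternatives that gave them a value and 32 on leaving out any 1 array. Calls lost were 9 on median centring, 3 on quantile normalization, 1 with the constant, 0 among bright genes (44 calls; the other 9, on dim genes, have no value there), 6 without the variance trend and 13 in fits of the compared groups alone. Counts of family genes called moved from 2 to 4 for 100 against 1 µM at 24 h on quantile normalization, from 0 to 1 for 1 µM at 48 h among bright genes, and from 2 to 1 for 1 µM at 24 h without the variance trend. Leaving out 1 array gave 1 to 3 calls for 1 µM at 24 h, 0 to 0 at 48 h, 13 to 17 for 100 µM at 24 h and 11 to 15 at 48 h. It gave 2 to 4 and 4 to 10 for 100 against 1 µM at 24 and 48 h, 7 to 11 for vehicle over time, 0 to 0 for the change of the 1 µM effect and 0 to 2 for that of the 100 µM effect.

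No call turned its direction under these settings, and the opposite signs all came from other, dimmer probe sets of a gene; the cause was not tested. Tubb3 gave -0.53 at 100 µM and 24 h and -1.02 against 1 µM, Myo1d 0.20 at 24 h and 0.39 at 48 h, Myh11 1.08 and Myl2 1.62 at 48 h, with Myl2 0.20 against 1 µM, and Tubb5 -0.087 in vehicle over time. Tpm1 gave 0.12, 0.059, 0.24, 0.092 and 0.20 at 24 h, 0.11 and 0.059 at 48 h, and 0.013, 0.0070, 0.25 and 0.041 against 1 µM at 48 h. Tpm3 gave -0.10 at 24 h, -0.098, -0.014, -0.17, -0.029, -0.0094 and -0.17 at 48 h, and -0.031, -0.19, -0.14, -0.080 and -0.14 against 1 µM at 48 h.

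The running numbers in the titles cycle through the 6 groups, and no label ties neighbouring numbers to a shared culture or batch. Arrays of the same cycle deviated from their group means with a median correlation of 0.006 (-0.038 to 0.111, 75 pairs). The median was -0.001 over 300 pairs of different cycles, and 9 of 30 arrays were closest to their own cycle. These values, taken over all genes with the dim ones included, show little pairing by cycle. They cannot exclude a shared culture or batch. A replicate block of these cycles, chosen after seeing the data, kept 52 of the 53 calls, lost Actn1 in vehicle over time (adjusted p = 0.0515) and added 7. It moved the count from 0 to 1 for 1 µM at 48 h, where Tpm4 was called, and from 1 to 2 for the change of the 100 µM effect, where Flnc was added (-1.04). Signals near the floor (Krt7, Krt19, Myh11) set no direction. Changes of about 0.25 were mostly missed in the simulation, which changed 200 genes where the data gave 3000 calls. Its recovery was not split by signal, so the share of such changes missed among bright genes here is not known.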
